A study of Mus musculus with 4 samples.

Results

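The genes described here are the core of the cytosolic DNA sensing pathway of cGAS: Cgas, the STING gene (written Tmem173 in the features of these matrices), Tbk1, Irf3, Trex1, Samhd1 and Enpp1. They were chosen by name, and are 7 of the 32285 genes in each matrix, of which 23543 had at least 1 UMI (unique molecular identifier, which counts each captured transcript once). The 4 libraries were 10x 3′ single-cell RNA-seq of bone marrow (BM) and spleen, named BM-Ctrl and BM-shPrmt9 for marrow, and Spleen-Ctrl and Spleen-shPrmt9 for spleen. The mice were C57BL/6J, aged 6 to 8 weeks, and carried a transplant of MA9 cells, in which the MLL-AF9 fusion drives mouse progenitors into a disease like acute myeloid leukaemia. In the shPrmt9 groups the MA9 cells held a doxycycline-inducible hairpin against Prmt9, an arginine methyltransferase gene. In the Ctrl groups they held a control. All mice, Ctrl included, drank doxycycline (Dox) for 7 days, and the recipients were wild-type B6 animals with their own immune cells after sublethal irradiation. Each group was 1 library from 1 representative mouse, so no difference below has a replicate check, and every interval covers counting error alone.

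cGAS binds double-stranded DNA in the cytosol and makes the second messenger cGAMP, which binds STING on the endoplasmic reticulum. STING then moves to the Golgi and brings TBK1 to IRF3, and phosphorylated IRF3 turns on type I interferon and interferon-stimulated genes. Exonucleases and nucleotide hydrolases such as TREX1 and SAMHD1 keep DNA out of the sensor's reach, and ENPP1 breaks down cGAMP outside the cell. In leukaemia and other tumours cGAMP can pass from tumour cells to the immune cells around them, so that the level of each step in each cell type is of interest.

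UMIs of each gene were summed over the cells of a type in a library and are given as counts per 1000000 UMIs of those cells (CPM), with an exact Poisson 95% interval. Cells were assigned by marker gates, and a name such as T-like stands for likeness by these markers only. The transplanted cells were sought with Hoxa genes, Meis1 and other MA9 markers, and gated on Hoxa9 and Hoxa10. The 10 genes highest in that class over all other cells held 2 of this list, Hoxa9 and Hoxa10 themselves, but 3 neutrophil progenitor markers, Ctsg, Elane and Prtn3. They are therefore called Hoxa-gated cells and not by a cell type. They numbered 1617 in BM-Ctrl, 1831 in BM-shPrmt9, 38 in Spleen-Ctrl and 169 in Spleen-shPrmt9, with median depths of 59001, 49619, 39178 and 24106 UMIs per cell. With cells assigned by profile, an alternative to the gate, the class held 1909, 2062, 45 and 92 cells in the same order. The class called Mpo/Ms4a3-gated, 64 and 33 cells of the marrow libraries, was likewise led by Prg2, Prg3 and Epx, which are eosinophil granule genes. The libraries of a tissue were compared where a class held at least 30 cells in both, which gave 8 classes in marrow and 6 in spleen.

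Some facts of the libraries bear on all that follows. The files held 8648 to 11315 cell barcodes and 84009744 to 188030429 UMIs per library, with median depths of 6589 to 10022 UMIs per cell. Across the libraries 160 cell barcodes were found in more than 1 library. A set of 4 Y-linked genes had 1 UMI in BM-Ctrl and 2 in BM-shPrmt9, against 17709 in Spleen-Ctrl and 16431 in Spleen-shPrmt9, so the marrow and spleen libraries of a group held host cells unlike in these genes, and tissue and animal cannot be told apart. In the spleen libraries 77.2% and 81.6% of T-like cells held such a UMI, against 5.26% and 6.51% of Hoxa-gated cells, which thus stood apart from the host cells. The level of Prmt9 in Hoxa-gated cells was 11.2 CPM in BM-Ctrl and 6.30 in BM-shPrmt9, a ratio of 0.561 (95% interval 0.508 to 0.620), and 16.1 and 5.63 CPM in spleen, a ratio of 0.350 (0.192 to 0.640). It was also lower in the spleen T-like cells of the shPrmt9 library, with 9.34 against 15.1 CPM (ratio 0.619, 0.517 to 0.742). Granulocyte markers, a list of 13 genes led by S100a8 and S100a9, differed widely among the Hoxa-gated cells, with a summed level of 7962 CPM in BM-Ctrl, 35914 in BM-shPrmt9, 70322 in Spleen-Ctrl and 185415 in Spleen-shPrmt9. Cells of the class that also passed the granulocyte gate were 1.55%, 8.08%, 5.26% and 7.69% in the same order.

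The ratio of shPrmt9 to Ctrl was taken within each tissue and class, with an exact conditional binomial 95% interval, and a gene was called past the fold where the ratio lay beyond 1.5-fold in either direction with at least 20 UMIs in the pair of libraries. The 7 genes gave 72 such ratios in the 14 comparisons, of which 30 were past the fold, 18 higher in shPrmt9 and 12 lower. In Hoxa-gated cells of the marrow 3 of the 6 members with enough UMIs were past the fold, Tmem173, Tbk1 and Enpp1, where 38.0% of all 14060 genes tested were. In those of the spleen it was 3 of 5, Cgas, Tmem173 and Samhd1, where the share of all genes was 51.8%. In marrow the members past the fold were 2 of 6 in T-like cells (22.0% of all genes), 1 of 5 in B-like cells (25.8%), 2 of 6 in monocyte/macrophage-like cells (30.8%), 2 of 5 in granulocyte-like cells (28.0%), 2 of 5 in Mpo/Ms4a3-gated cells (24.3%), 4 of 4 in erythroid-like cells (47.6%, with Tbk1 and Irf3 short of the fold when scaled by TMM, edgeR's trimmed mean of M-values) and 2 of 5 in basophil-like cells (20.9%). In spleen they were 1 of 6 in T-like cells (28.6%), 2 of 5 in NK-like cells (40.1%), 3 of 6 in B-like cells (41.1%), 2 of 4 in granulocyte-like cells (46.0%) and 1 of 4 in erythroid-like cells (59.0%). With 4 to 6 members per comparison these counts say little beside the shares of all genes, and the values of single members follow.

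**Figure D1:**
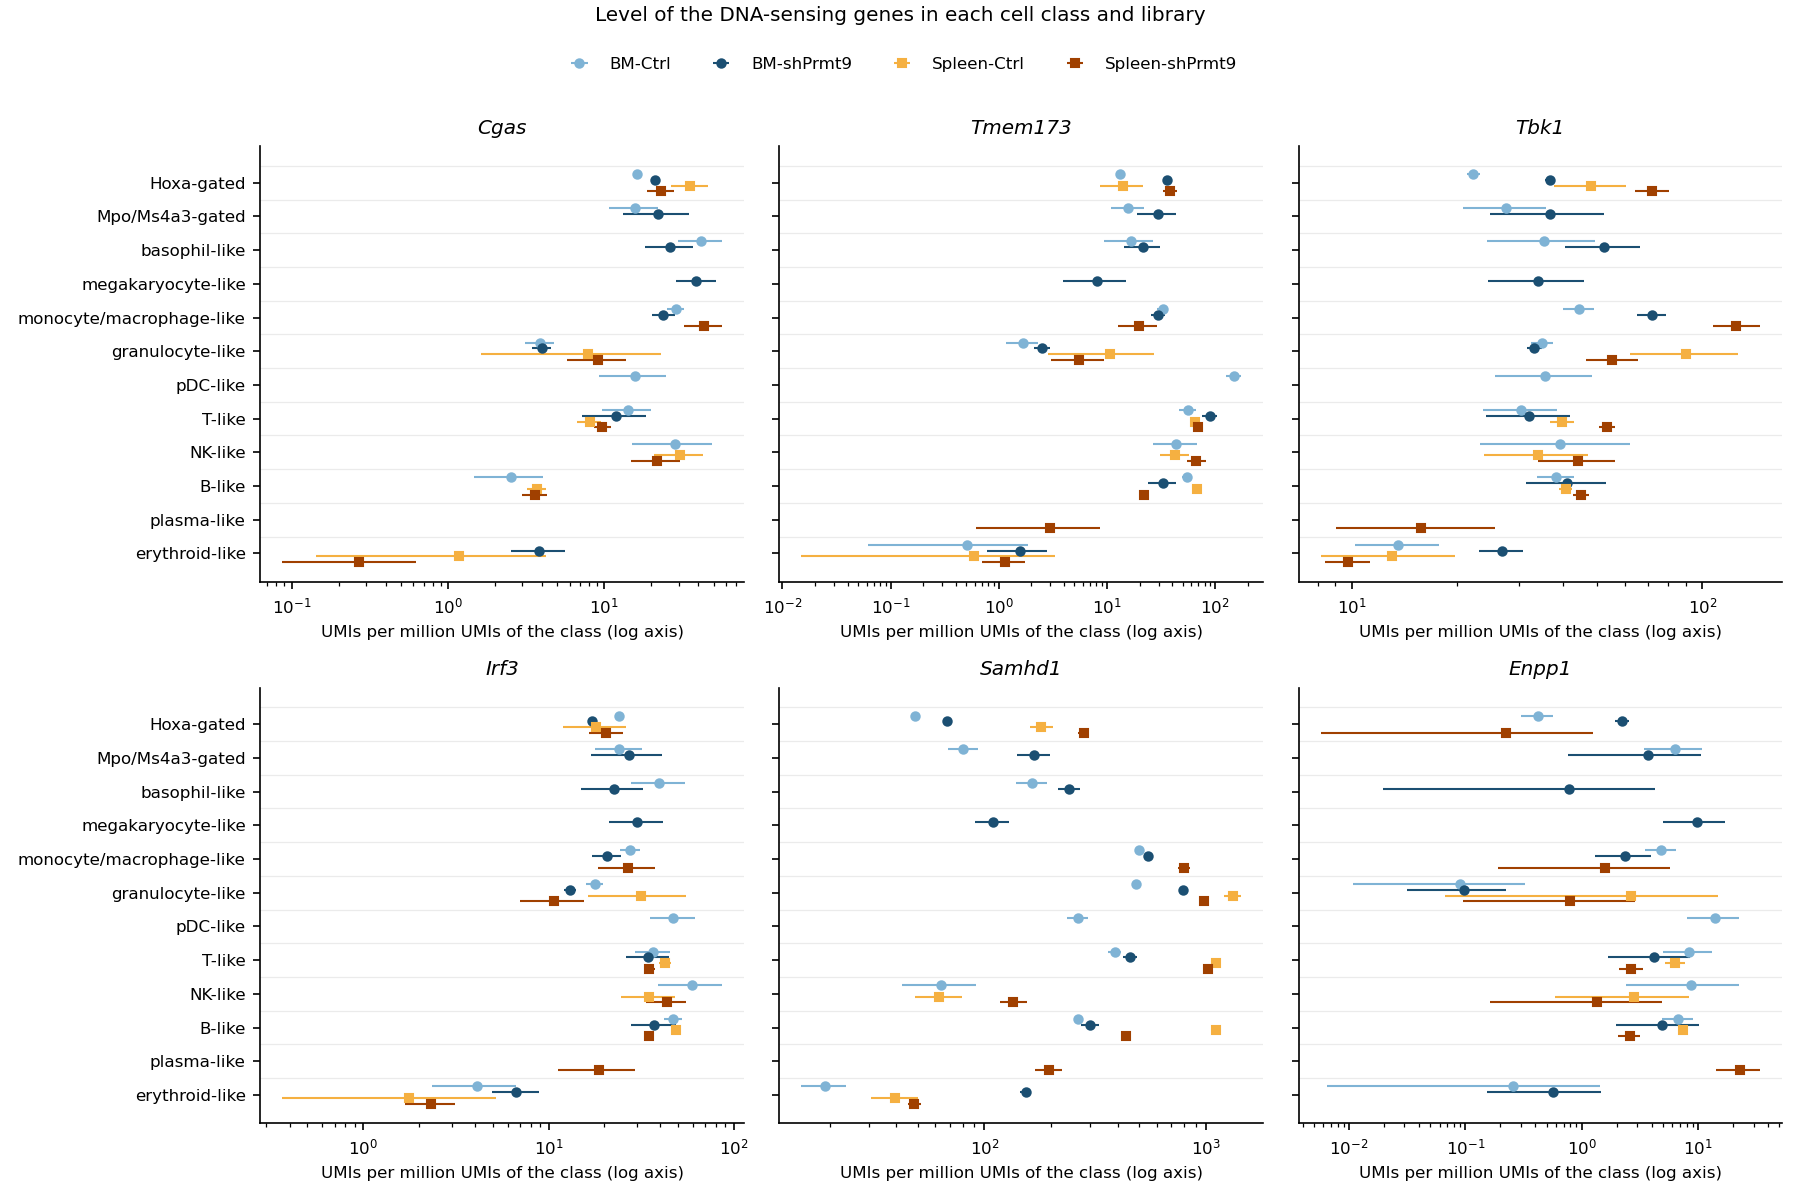
Levels of the members in each cell class (CPM on a log axis, points are single libraries, bars are exact Poisson 95% intervals, colours are the 4 libraries). A class with 0 UMIs is not drawn. Tmem173 sits at 2.51 CPM in granulocyte-like cells of BM-shPrmt9 and at 149 CPM in pDC-like cells of BM-Ctrl, and Samhd1 reaches 1321 CPM in granulocyte-like cells of Spleen-Ctrl.

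Cgas, the DNA sensor itself, lies on chromosome 9 (GRCm38, bases 78430526 to 78443237, minus strand). The 250 bases before its start are shown because they held neither of the interferon-response motifs searched for below (RefSeq, GRCm38.p6, chr9:78443238-78443487, minus strand, 5′ to 3′).
Cgas: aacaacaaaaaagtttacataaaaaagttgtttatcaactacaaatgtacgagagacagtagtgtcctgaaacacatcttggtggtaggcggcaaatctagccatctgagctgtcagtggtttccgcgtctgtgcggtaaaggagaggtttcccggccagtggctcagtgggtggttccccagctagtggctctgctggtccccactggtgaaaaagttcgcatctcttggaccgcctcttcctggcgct
In Hoxa-gated cells its level was 16.3 CPM (15.5 to 17.1) in BM-Ctrl, 21.0 (20.1 to 21.9) in BM-shPrmt9, 35.5 (26.6 to 46.4) in Spleen-Ctrl and 23.0 (18.7 to 27.9) in Spleen-shPrmt9. The highest value was thus in the control spleen, and the hairpin libraries of both tissues lay close together. The ratio was 1.29 (1.21 to 1.38) in marrow, short of the fold, and 0.647 (0.460 to 0.919) in spleen, past it. Scaled by TMM the spleen log2 ratio of -0.63 became -0.46, which is short of the fold. The log2 ratio in spleen was lower than in marrow by a difference of -1.0 (95% interval -1.49 to -0.51). The Spleen-Ctrl value rests on 53 UMIs in 38 cells.

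The marrow Hoxa-gated cells held most of the Cgas transcripts of their libraries, 76.1% of the classed Cgas UMIs in BM-Ctrl and 80.1% in BM-shPrmt9. Such shares also depend on cell number and depth, and these cells had median depths of 59001 and 49619 UMIs. Their level was not the highest of the classes. In BM-Ctrl the order ran from basophil-like cells (41.5 CPM, 29.6 to 56.5) through monocyte/macrophage-like (28.6, 25.2 to 32.4) and NK-like (natural killer) cells (28.5, 15.1 to 48.7) to Hoxa-gated (16.3), Mpo/Ms4a3-gated (15.7), pDC-like (plasmacytoid dendritic, 15.7) and T-like cells (14.1). Intervals of neighbours in that part of the order overlapped. Granulocyte-like cells were apart at 3.87 CPM (3.10 to 4.78), followed by B-like cells at 2.54 (1.48 to 4.06), and erythroid-like cells had 0 UMIs (up to 0.770 CPM). In Spleen-shPrmt9 monocyte/macrophage-like cells were highest with 43.3 CPM (32.6 to 56.4), above Hoxa-gated cells by intervals that did not overlap.

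Among lymphoid cells Cgas was lower in T-like and B-like than in NK-like cells, which had 28.5 CPM in BM-Ctrl, 30.3 in Spleen-Ctrl and 21.7 in Spleen-shPrmt9. In BM-Ctrl the NK-like interval (15.1 to 48.7, from 13 UMIs) overlapped that of T-like cells (9.65 to 19.9). T-like cells had 14.1 CPM in BM-Ctrl, 11.9 in BM-shPrmt9, 8.07 in Spleen-Ctrl and 9.74 in Spleen-shPrmt9, with ratios of 0.843 in marrow and 1.21 in spleen whose intervals both held 1, and the marrow sign turned with cells assigned by profile (log2 ratio of 0.18). Within spleen T-like cells, those with a Cd4 UMI and none of Cd8a or Cd8b1 had 4.37 CPM (2.26 to 7.63) in Ctrl and 9.63 (7.29 to 12.5) in shPrmt9, whereas Cd8 cells had 10.1 (8.17 to 12.2) and 9.61 (8.09 to 11.3). The Cd4 value in Ctrl rests on 12 UMIs. B-like cells had 3.70 CPM in Spleen-Ctrl and 3.59 in Spleen-shPrmt9, a ratio of 0.971 (0.767 to 1.22). To set depth aside, cells were thinned to 3000 UMIs each. A Cgas UMI was then found in 4.82% (3.83 to 5.98) of Hoxa-gated cells of BM-Ctrl, in 6.02% (4.97 to 7.21) in BM-shPrmt9, in 7.89% (1.66 to 21.4) in Spleen-Ctrl and in 4.73% (8 of 169 cells) in Spleen-shPrmt9. Unthinned, these shares were 47.6%, 51.8%, 55.3% and 28.4%. Thinned erythroid-like cells, whose median depths had been 5241 to 12981 UMIs, gave 0% to 0.746%.

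Tmem173 encodes STING, the adaptor that binds cGAMP, and lies on chromosome 18. In Hoxa-gated cells it was higher in the shPrmt9 library of both tissues. Its level was 13.1 CPM (12.4 to 13.8) in BM-Ctrl and 35.6 (34.4 to 36.8) in BM-shPrmt9, and 14.1 (8.70 to 21.5) in Spleen-Ctrl and 38.5 (32.9 to 44.7) in Spleen-shPrmt9. Both hairpin libraries were above both control libraries with no overlap of the intervals, and the tissues hardly differed. The ratio was 2.72 (2.55 to 2.90) in marrow and 2.74 (1.73 to 4.54) in spleen, and the difference of the log2 ratios, 0.01, had an interval of -0.65 to 0.67. Thinned to 3000 UMIs, a Tmem173 UMI was found in 3.28% (2.46 to 4.27) of these cells in BM-Ctrl, 10.6% (9.19 to 12.1) in BM-shPrmt9, 7.89% (1.66 to 21.4) in Spleen-Ctrl and 6.51% (3.29 to 11.3) in Spleen-shPrmt9, where erythroid-like cells gave 0% to 0.666%. The spleen shares rest on 3 and 11 cells with overlapping intervals, so no order is read from them. Unthinned, the shares of Hoxa-gated cells were 47.9%, 74.3%, 34.2% and 56.8%. Without the cells that also passed the granulocyte gate its level was 13.1 CPM in BM-Ctrl, 34.7 in BM-shPrmt9, 13.7 in Spleen-Ctrl and 38.3 in Spleen-shPrmt9.

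In B-like cells the direction was the opposite. The level was 54.8 CPM (49.3 to 60.7) in BM-Ctrl, 32.8 (24.1 to 43.6) in BM-shPrmt9, 67.4 (65.1 to 69.7) in Spleen-Ctrl and 22.0 (20.5 to 23.6) in Spleen-shPrmt9. The ratio was 0.599 (0.432 to 0.813) in marrow and 0.327 (0.301 to 0.353) in spleen, both past the fold, though the marrow log2 ratio was -0.57 as a mean over cells, just short of it. In spleen the thinned share of B-like cells with a UMI was 20.2% (19.2 to 21.3) in Ctrl and 7.83% (6.55 to 9.27) in shPrmt9, and the unthinned share 39.7% and 31.1%. The B-like cells themselves differed between these libraries, with 5971 cells of median depth 6439 UMIs in Spleen-Ctrl against 1625 of 17088 in Spleen-shPrmt9, a summed level of the 16 B cell markers of 11282 against 6668 CPM and of the 8 plasma cell markers of 648 against 1026 CPM (Tnfrsf17 at 0 in both). Their part in the result was not tested. B-like cells held 74.9% of the classed Tmem173 UMIs in Spleen-Ctrl and 25.1% in Spleen-shPrmt9, where T-like cells held 62.7%.

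T-like cells carried Tmem173 at 56.0 CPM (46.7 to 66.6) in BM-Ctrl, 89.2 (75.5 to 105) in BM-shPrmt9, 65.2 (61.3 to 69.3) in Spleen-Ctrl and 69.5 (66.4 to 72.7) in Spleen-shPrmt9. The marrow ratio of 1.59 (1.25 to 2.03) was past the fold and the spleen ratio of 1.07 (0.987 to 1.15) was not. In spleen Cd4 cells were above Cd8 cells in both libraries, with 79.3 against 55.6 CPM in Ctrl and 86.3 against 57.0 in shPrmt9. NK-like cells of the spleen had 42.6 CPM (31.1 to 57.0) and 67.1 (54.6 to 81.8), a ratio of 1.58 (1.10 to 2.29) that was short of the fold with TMM (log2 ratio of 0.51). The highest level of all was in the 110 pDC-like cells of BM-Ctrl, at 149 CPM (127 to 173), with a UMI in 40.0% of thinned and 67.3% of unthinned cells. The other libraries held too few of these cells for a value. At the low end, granulocyte-like cells of the marrow had 1.67 CPM in Ctrl and 2.51 in shPrmt9, a ratio of 1.51 (1.04 to 2.24) at the edge of the fold that was not past it with a stricter gate (log2 ratio of 0.29). Erythroid-like cells of the marrow libraries had 0.513 and 1.57 CPM.

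**Figure D2:**
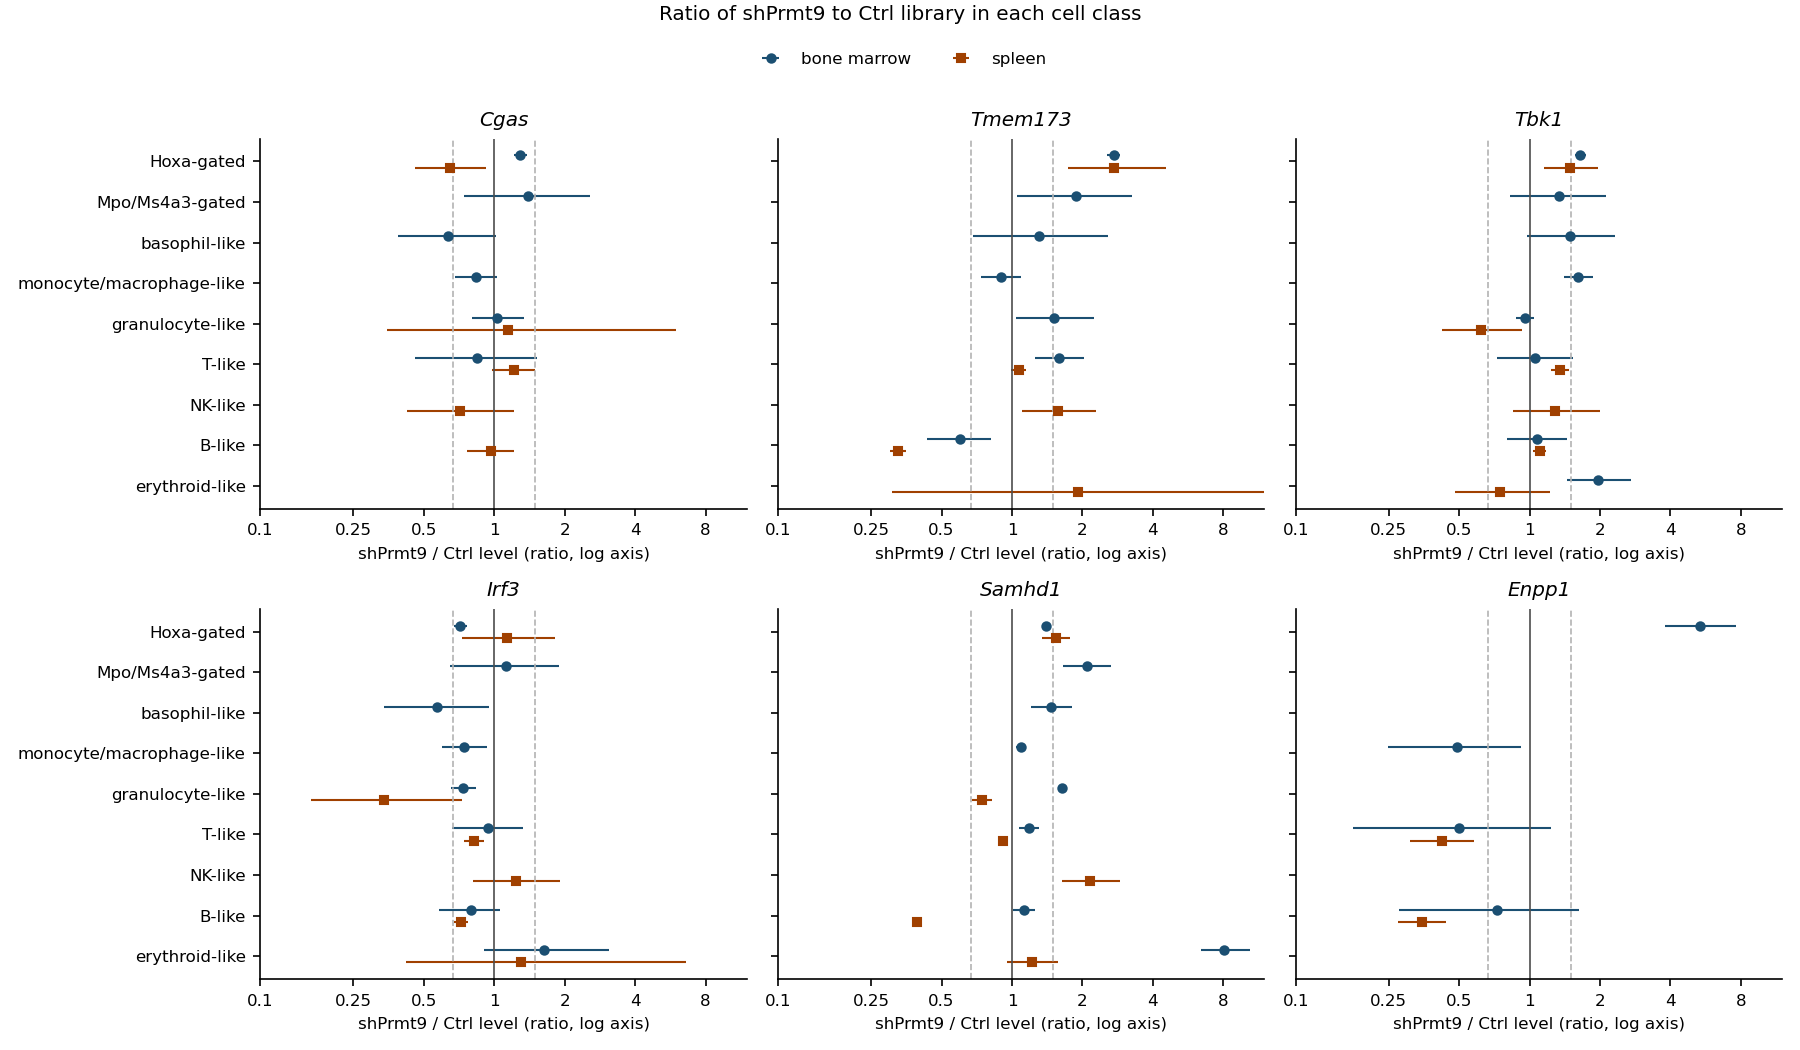
Ratio of shPrmt9 to Ctrl for each member, class and tissue (log axis, points are single pairs of libraries, bars are exact 95% intervals for counting error, dashed lines are 1.5-fold in either direction, and the interval of Tmem173 in spleen erythroid-like cells runs on past the right edge). Tmem173 lies at 2.72 and 2.74 in Hoxa-gated cells and at 0.599 and 0.327 in B-like cells of marrow and spleen.

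Tbk1 encodes the kinase that phosphorylates STING and IRF3 (chromosome 10, bases 121546455 to 121586787). In Hoxa-gated cells its level was 22.2 CPM (21.3 to 23.2) in BM-Ctrl, 36.7 (35.5 to 38.0) in BM-shPrmt9, 48.2 (37.7 to 60.7) in Spleen-Ctrl and 72 (64.3 to 80.3) in Spleen-shPrmt9. The hairpin library was higher in each tissue and spleen was higher than marrow. The ratio was 1.65 (1.57 to 1.74) in marrow, past the fold, and 1.49 (1.15 to 2.0) in spleen, just short of it. With TMM scaling the spleen log2 ratio of 0.58 became 0.75, which is past the fold. The granulocyte marker sum had the same order over the 4 libraries, and its part in the level was not tested. Without the cells of the granulocyte gate the levels were 22.2, 36.7, 47.4 and 73.0 CPM.

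Monocyte/macrophage-like cells had the highest Tbk1 level of the marrow classes in both libraries, 44.4 CPM (40.1 to 49.1) in BM-Ctrl and 71.7 (65.0 to 78.8) in BM-shPrmt9, a ratio of 1.61 (1.40 to 1.86) that was just short of the fold with a stricter gate (log2 ratio of 0.56). In Spleen-shPrmt9 the 99 cells of the class had 125 CPM (107 to 146). T-like cells of the spleen had 39.7 CPM (36.7 to 43.0) in Ctrl and 53.6 (50.8 to 56.4) in shPrmt9, a ratio of 1.35 (1.23 to 1.48) short of the fold, and those of the marrow 30.4 and 32.1 (ratio 1.06, 0.725 to 1.53). B-like cells varied least, between 38.2 and 45.1 CPM over the 4 libraries. Granulocyte-like cells of the marrow had 34.8 and 33.2 CPM. In spleen, where the class was small, they had 89.9 CPM (62.2 to 126, 67 cells) in Ctrl and 55.4 (46.6 to 65.4) in shPrmt9, a ratio of 0.617 (0.421 to 0.926) that was lost when cells were assigned by profile (log2 ratio of 0.13).

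Irf3, the transcription factor at the end of the pathway, lies on chromosome 7 (bases 44997648 to 45002848, plus strand). No class had it above 1.5-fold in shPrmt9 apart from the erythroid-like cells of the marrow, where 16 and 47 UMIs gave a ratio of 1.63 (0.908 to 3.08). That log2 ratio of 0.71 was short of the fold with TMM (0.24), the median of ratios (0.23) and totals without haemoglobin, mitochondrial and immunoglobulin genes (0.36). In the erythroid-like cells of the spleen the log2 ratio of 0.38 became 1.12 with TMM, past the fold. Hoxa-gated cells had 24.1 CPM (23.1 to 25.1) in BM-Ctrl, 17.2 (16.4 to 18.1) in BM-shPrmt9, 18.1 (11.9 to 26.3) in Spleen-Ctrl and 20.5 (16.5 to 25.1) in Spleen-shPrmt9. In the marrow, where Cgas, Tmem173 and Tbk1 were higher with the hairpin, Irf3 was therefore lower, with a ratio of 0.716 (0.672 to 0.762). In spleen the ratio was 1.13 (0.730 to 1.81), and the log2 ratio -0.07 with cells assigned by profile.

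Ratios whose interval lay below 1 were also found in host classes. The ratio was 0.718 (0.670 to 0.769) in B-like and 0.820 (0.743 to 0.906) in T-like cells of the spleen, and 0.745 (0.595 to 0.931) in monocyte/macrophage-like, 0.738 (0.651 to 0.838) in granulocyte-like and 0.568 (0.338 to 0.945) in basophil-like cells of the marrow. Of these, the last was past the fold, but not as a mean over cells (log2 ratio of -0.39). In the marrow granulocyte-like cells the log2 ratio of Irf3 was -0.44, where the median of all genes was -0.30. TMM scaling raised the log2 ratios of that comparison by 0.31, so most of the Irf3 difference there is shared with other genes. Granulocyte-like cells of the spleen had 31.7 CPM (12 UMIs) and 10.7 (27 UMIs), a ratio of 0.337 (0.165 to 0.730) that was lost when cells were assigned by profile (log2 ratio of 0.07). In T-like and B-like cells the level ran from 34.5 to 48.8 CPM over the 4 libraries.

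Trex1, the exonuclease that degrades DNA in the cytosol, could not be read from these files. In all 4 matrices it had 1 UMI, in a B-like cell of Spleen-Ctrl. All of its 1147 exonic bases in GENCODE vM21 (chromosome 9, 109057933 to 109059734) lie inside exons of Atrip on the same strand, which held 5097 UMIs. A read there belongs to both genes, so the count of Trex1 depends on how the authors' counter treats shared reads. The other 6 members share 0 exonic bases with such a gene. The single UMI is therefore no measure of Trex1, and no level or ratio is given.

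Samhd1 encodes a hydrolase of deoxynucleotides that also limits single-stranded DNA at stalled replication forks, and had 231786 UMIs in all. It lies on chromosome 2 (bases 157097533 to 157135265, minus strand). The bases that precede it are shown because they held the one interferon-response motif found among the members, a gamma-activated site core given in capitals (RefSeq, GRCm38.p6, chr2:157135266-157135346, minus strand, 5′ to 3′).
Samhd1: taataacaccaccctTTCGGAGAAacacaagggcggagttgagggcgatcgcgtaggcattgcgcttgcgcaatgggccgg
In Hoxa-gated cells the level was 48.5 CPM (47.1 to 49.9) in BM-Ctrl, 67.9 (66.3 to 69.5) in BM-shPrmt9, 181 (160.5 to 204) in Spleen-Ctrl and 281 (265 to 297) in Spleen-shPrmt9. Spleen was well above marrow, and within each tissue the hairpin library was higher. The ratio was 1.40 (1.35 to 1.45) in marrow, short of the fold, and 1.55 (1.35 to 1.77) in spleen, past it but not without the shared barcodes (log2 ratio of 0.56). The order of the 4 libraries was that of the granulocyte marker sum. Cells that also passed the granulocyte gate had 157, 197, 1018 and 559 CPM in the order BM-Ctrl, BM-shPrmt9, Spleen-Ctrl, Spleen-shPrmt9 (25, 148, 2 and 13 cells), and the rest had 47.6, 59.3, 161 and 265 CPM. In the rest the log2 ratio was 0.32 in marrow and 0.72 in spleen. The thinned share of all cells of the class with a UMI was 12.9%, 17.5%, 34.2% and 56.2%, and 86.6%, 86.0%, 92.1% and 99.4% unthinned. Thinned erythroid-like cells gave 5.65%, 23.7%, 8.96% and 11.3%.

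T-like and B-like cells had more Samhd1 in spleen than in marrow, and the B-like cells of Spleen-shPrmt9 were well below those of Spleen-Ctrl. T-like cells had 387 CPM (362 to 414) in BM-Ctrl, 456 (424 to 489.5) in BM-shPrmt9, 1117 (1101 to 1133) in Spleen-Ctrl and 1021 (1009 to 1033) in Spleen-shPrmt9. The ratio was 1.18 (1.07 to 1.30) in marrow and 0.914 (0.897 to 0.931) in spleen, opposite in direction and neither past the fold. Cd4 cells of the spleen had 1521 CPM in Ctrl and 1258 in shPrmt9, Cd8 cells 892 and 836. B-like cells had 266 CPM (254 to 279) in BM-Ctrl, 301 (273 to 331) in BM-shPrmt9, 1109.5 (1100.4 to 1119) in Spleen-Ctrl and 434 (427 to 441) in Spleen-shPrmt9. The marrow ratio was 1.13 (1.01 to 1.26), with no difference left when cells were assigned by profile (log2 ratio of -0.01), and the spleen ratio was 0.391 (0.384 to 0.398). In thinned cells the share with a UMI was 90.7% (89.9 to 91.4) in Spleen-Ctrl and 67.6% (65.2 to 69.9) in Spleen-shPrmt9, against 97.7% and 96.3% unthinned. The difference in B cell markers and depth between these libraries, given above for Tmem173, holds here too and was not tested.

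In marrow, myeloid and erythroid-like cells had more Samhd1 in the shPrmt9 library. Granulocyte-like cells had 482 CPM (473 to 492) in BM-Ctrl and 790.3 (783 to 798) in BM-shPrmt9, a ratio of 1.64 (1.60 to 1.67), in a comparison whose genes had a median log2 ratio of -0.30 overall. In spleen they had 1321 CPM (1208 to 1442) in Ctrl and 985 (946 to 1024) in shPrmt9. That ratio, 0.745 (0.677 to 0.822), became -0.01 on the log2 scale when libraries were scaled by TMM or by the median of ratios, which moved this comparison by 0.42. Granulocyte-like cells held 46.0% of the classed Samhd1 UMIs of BM-Ctrl and 75.9% of those of BM-shPrmt9. Such shares also depend on cell number and depth, and the class had 4107 cells of median depth 4181 UMIs in BM-Ctrl. In BM-shPrmt9 it had 6249 cells of median depth 7064. Mpo/Ms4a3-gated cells had 80.2 and 168 CPM (ratio 2.09, 1.66 to 2.64), and basophil-like cells 164 and 241 (1.47, 1.21 to 1.80). Monocyte/macrophage-like cells had 499 and 546 CPM in marrow (1.09, 1.04 to 1.14), the sign of which did not hold with cells assigned by profile (log2 ratio of -0.15).

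Erythroid-like cells of the marrow had 19.0 CPM (14.9 to 23.8) of Samhd1 in Ctrl and 154 (145 to 163) in shPrmt9, a ratio of 8.10 (6.40 to 10.4). Over all genes of that comparison the median log2 ratio was 0.50, and the granulocyte marker sum in these cells, with all 13 markers found in both, was 2806 CPM in Ctrl and 8615 in shPrmt9. Its part in the result was not tested. In spleen erythroid-like cells had 39.6 and 48.2 CPM, a ratio of 1.22 (0.949 to 1.58) that did not hold its size or sign, since the log2 ratio of 0.28 became 1.02 with TMM or the median of ratios and -0.58 with cells passing 2 gates kept in the higher class. NK-like cells of the spleen had 62.5 CPM (48.3 to 79.5) in Ctrl and 135 (117 to 155) in shPrmt9, a ratio of 2.16 (1.63 to 2.90) that rests on 73 and 148 cells and was -0.02 on the log2 scale when such cells were kept.

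Enpp1 encodes the membrane enzyme that hydrolyses extracellular cGAMP (chromosome 10, bases 24637914 to 24712159) and had 1388 UMIs in all. In the marrow Hoxa-gated cells it had 0.418 CPM (0.30 to 0.567, 41 UMIs) in BM-Ctrl and 2.23 (1.95 to 2.55, 218 UMIs) in BM-shPrmt9, a ratio of 5.34 (3.81 to 7.65). The 218 UMIs came from 181 cells, with at most 4 in a cell. The spleen cells of the class had 0 UMIs in Ctrl (up to 2.01 CPM) and 1 in shPrmt9, so no ratio can be had there. Hoxa-gated cells held 76.2% of the classed Enpp1 UMIs of BM-shPrmt9 against 21.5% in BM-Ctrl.

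In the 5 other comparisons with at least 20 UMIs the summed level of Enpp1 was lower in the shPrmt9 library, 2 of them with intervals that held 1. B-like cells of the spleen had 7.42 CPM (6.69 to 8.21) and 2.58 (2.07 to 3.17), a ratio of 0.347 (0.273 to 0.439), and T-like cells 6.32 (5.15 to 7.68) and 2.67 (2.10 to 3.36), a ratio of 0.423 (0.309 to 0.577). In marrow monocyte/macrophage-like cells had 4.81 CPM (3.47 to 6.50) and 2.36 (1.29 to 3.96), a ratio of 0.491 (0.248 to 0.917). The marrow ratios of T-like cells (0.497, 0.176 to 1.23) and B-like cells (0.728, 0.277 to 1.63) had intervals that held 1, and the log2 ratio of the T-like cells turned to 0.35 as a mean over cells and that of the B-like cells to 0.01 by profile. The highest levels were in classes with few cells, 13.9 CPM (7.96 to 22.6) in pDC-like cells of BM-Ctrl and 22.8 (14.4 to 34.1) in the 42 plasma-like cells of Spleen-shPrmt9. In thinned spleen B-like cells a UMI was found in 2.33% (2.0 to 2.75) in Ctrl and 1.46% (0.930 to 2.19) in shPrmt9 (5.64% and 4.80% unthinned), where erythroid-like cells of the spleen gave 0 in both.

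The rest of the pathway was read from lists of genes, whose members were chosen with earlier results of these data known. Of 18 other DNA sensors and cofactors with enough UMIs, 8 were higher past the fold and 0 lower in marrow Hoxa-gated cells, where 21.0% of all genes were higher and 16.9% lower. They included Ifi204 (1.54 to 11.1 CPM, ratio 7.22, 6.09 to 8.62), a DNA-binding protein of the IFI16 kind, Ifi203 (ratio 3.76) and Zbp1 (26.3 to 84.6 CPM, ratio 3.22), a sensor of Z-form nucleic acid. In spleen the split was 5 higher and 6 lower of 16, where 23.4% of all genes were higher and 28.4% lower. There Ifi204 was at 24.1 (8.13 to 118, from 3 UMIs in Ctrl) and Hmgb1 at 0.322. Zbp1, Usp18 and Irf7 stand in 2 lists each.

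Genes that remove DNA or restrain the sensor in the nucleus differed between the tissues. In marrow Hoxa-gated cells 6 of 17 were higher and 1 lower, where 21.0% of all genes were higher and 16.9% lower. Fen1, a flap endonuclease of replication, went from 26.8 to 68.0 CPM (ratio 2.54, 2.43 to 2.66), Rrm2, the small subunit of ribonucleotide reductase in dividing cells, from 101 to 202 CPM (2.01, 2.0 to 2.1), and Rrm2b, its p53-regulated counterpart, from 26.8 to 13.1 CPM (0.490, 0.458 to 0.524). In spleen 2 of 16 were higher and 9 lower, where 23.4% of all genes were higher and 28.4% lower, and the same 3 genes lay on the other side of 1, with Fen1 at 0.504, Rrm2 at 0.526 and Rrm2b at 1.99 (1.10 to 3.91). Pld4, an exonuclease of endolysosomes, was lowest at 0.0776 (0.0261 to 0.193, from 26 UMIs in Spleen-Ctrl and 6 in Spleen-shPrmt9).

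Genes of cGAMP transport and breakdown were read in Hoxa-gated cells. In marrow 1 of 11 was higher and 2 lower past the fold, where 38.0% of all genes passed it. In spleen 2 of 5 were higher and 1 lower, where 51.8% of all genes passed it. Smpdl3a, a phosphodiesterase that also cleaves cGAMP, was higher in the Hoxa-gated cells of both tissues (68.9 to 120.3 CPM in marrow, ratio 1.75, and 67.0 to 149 in spleen, 2.22). In T-like cells it was lower, at 0.538 (0.412 to 0.697) in marrow and 0.269 (0.240 to 0.301) in spleen. In Hoxa-gated cells the folate and cGAMP carrier Slc19a1 was at 0.723 in marrow and 0.103 (0.0405 to 0.235) in spleen. P2rx7, an ATP-gated channel, was at 0.314 (0.210 to 0.461) in the marrow cells of that class. Of genes of STING trafficking in Hoxa-gated cells 3 of 20 were higher and 2 lower in marrow, against 21.0% and 16.9% of all genes. In spleen 3 of 17 were higher and 1 lower, against 23.4% and 28.4% of all genes. Each count lay below the share of all genes. Usp18, an interferon-induced deubiquitinase-like protein, was at 5.97 in marrow and 9.54 in spleen. Stim1, the calcium sensor that holds STING in the endoplasmic reticulum, was at 3.41 in spleen.

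Kinases and factors next to TBK1 and IRF3 were split in marrow Hoxa-gated cells, 3 higher and 3 lower of 20 (21.0% and 16.9% of all genes). Irf7 was at 4.21 (3.92 to 4.52), Ikbke at 1.64 and Irf5 at 0.502. In spleen 12 of 20 were higher and 1 lower (23.4% and 28.4% of all genes). Irf7 was there at 10.3 (7.98 to 13.5), Sqstm1 at 3.70 and Relb at 2.37. T-like cells had 10 of 19 higher and 0 lower in marrow and 11 of 20 and 0 in spleen, where 10.8% and 11.4% of all genes were higher. In T-like cells of the spleen the largest ratios were those of Irf5 (7.77), Irf7 (4.72) and Optn (3.51). Tbk1 itself was in the same cells at 1.35 and Irf3 at 0.820.

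**Figure D3:**
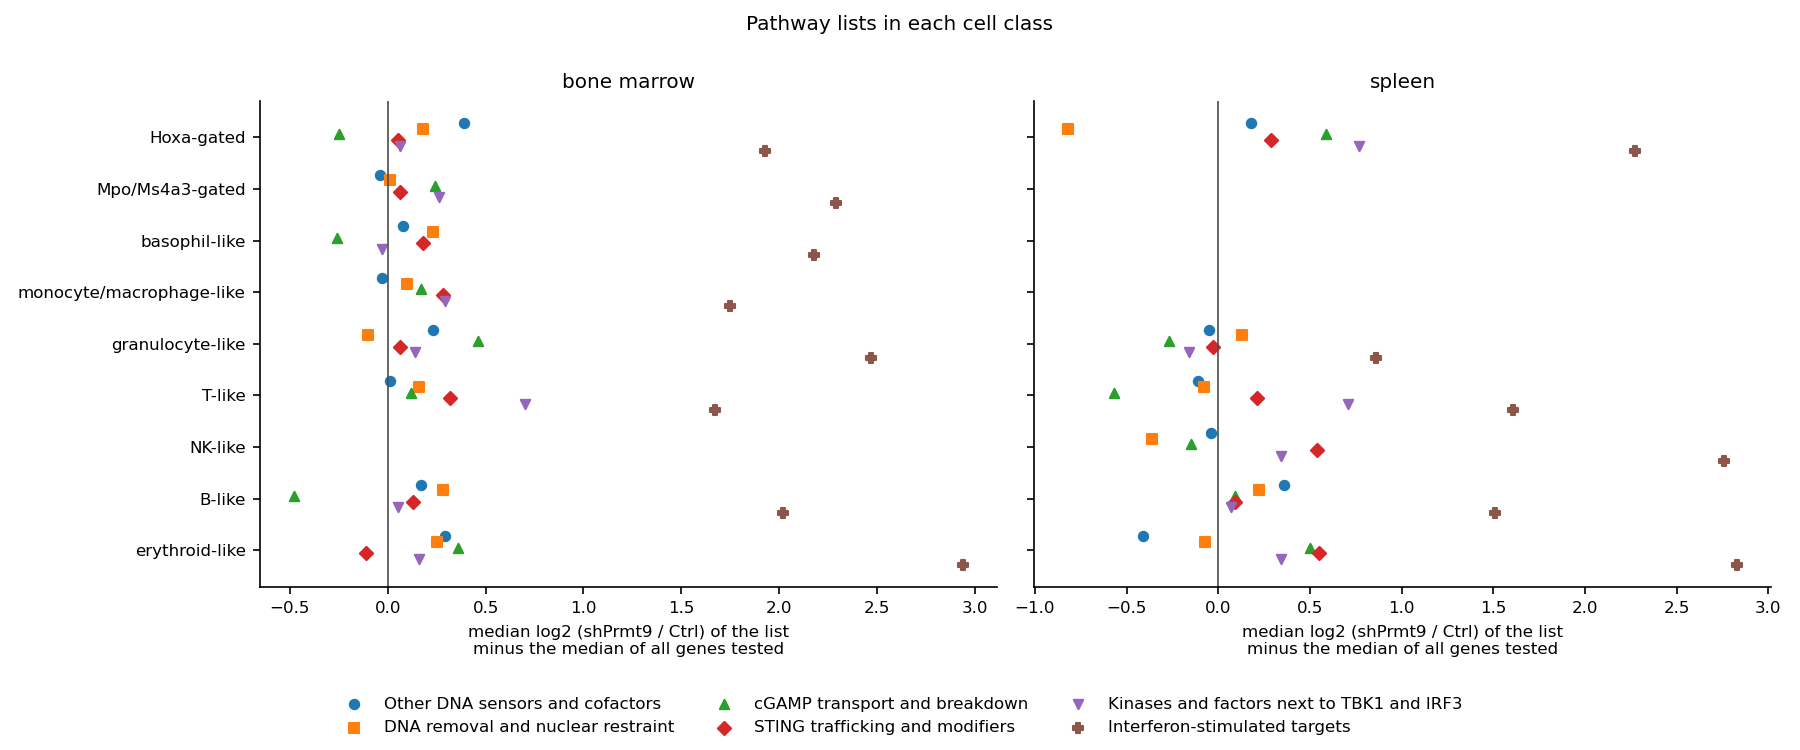
Genes of each pathway list by class and tissue (x axis: the list's median log2 ratio of shPrmt9 to Ctrl, over genes with at least 20 UMIs, less the median of all genes in that class, 1 point per list). In marrow Hoxa-gated cells interferon-stimulated targets stand at a median log2 ratio of 1.94, against 0.07 for kinases and factors next to TBK1 and IRF3.

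Interferon-stimulated genes, the targets at the end of the pathway, were higher with the hairpin in nearly every class. In Hoxa-gated cells 29 of 32 were higher past the fold and 0 lower in marrow (median log2 ratio 1.94, all genes 0.01), and 26 of 30 and 0 in spleen (2.21, all genes -0.06). Of all genes in these cells 21.0% were higher and 16.9% lower in marrow, and 23.4% and 28.4% in spleen. Isg15, a ubiquitin-like modifier, had 17.5 and 96.9 CPM in the marrow libraries (ratio 5.55, 5.27 to 5.85) and 93.1 and 867 in those of the spleen (9.32, 7.87 to 11.1). Ifit1, which binds viral RNA caps, had 0.388 and 14.7 CPM in marrow (37.9, 27.5 to 53.8), and Ifit3 had 0.102 and 6.89 (67.6, 36.5 to 142, from 10 UMIs in Ctrl). Interferon from any source turns these genes on, so they do not mark this pathway alone.

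Host cells also had more of them in the shPrmt9 libraries. In marrow all 32 genes were higher past the fold in granulocyte-like cells (summed level 1362 to 6925 CPM), where 6.58% of all genes were, and in erythroid-like cells (1764 to 10604 CPM), where 44.3% of all genes were higher and 3.33% lower. The count was 31 of 32 in monocyte/macrophage-like cells (14.8% of all genes), 27 of 30 in T-like (10.8%), 28 of 31 in B-like (10.1%), 26 of 29 in Mpo/Ms4a3-gated (11.6%) and 26 of 27 in basophil-like cells (10.4%). In spleen 25 of 25 were higher in NK-like cells (27.8% of all genes), 25 of 32 in T-like cells (11.4%), and 25 of 32 in B-like cells with 2 lower (13.4% of all genes higher, 27.7% lower). Erythroid-like cells of the spleen had 29 of 32 higher and 1 lower (16.9% and 42.1% of all genes). The spleen granulocyte-like cells differed, with 16 of 31 higher and 4 lower (14.2% and 31.8% of all genes, summed level 7307 to 9325 CPM). The interferon genes themselves gave almost no UMIs, with Ifnb1 at 1 UMI in BM-shPrmt9, 2 in Spleen-shPrmt9 and 0 in both Ctrl libraries, and Ifna2 at 6 in Spleen-shPrmt9. Ifnk had 9 UMIs in each marrow library and 2 in each spleen library, and Ifna5 had 1 in Spleen-Ctrl. The summed level of the targets over all cells was 981 CPM in BM-Ctrl, 4383 in BM-shPrmt9, 4317 in Spleen-Ctrl and 14340.5 in Spleen-shPrmt9. These sums mix classes in shares that differ between libraries. By class, control spleen lay below hairpin marrow in T-like (6214 against 31123 CPM), B-like (3780.4 against 6748) and erythroid-like cells (1682 against 10604). It lay slightly above in Hoxa-gated (1588 against 1376) and granulocyte-like cells (7307 against 6925). In T-like cells Ccl5 alone gave 25065 of the 31123 CPM in BM-shPrmt9 and 419 of the 6214 in Spleen-Ctrl. The T-like difference between these sums therefore rests mainly on that gene.

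Promoters were searched on both strands for the core of the interferon-stimulated response element, GAAANNGAAA, and of the gamma-activated site, TTCNNNGAA, from 250 bases before to 50 after each RefSeq start. The first was in 3.44% of 32851 promoters and the second in 8.30%. The motifs differ in length and were counted apart. Of the 6 members with a promoter in the table (Tmem173 had none), 0 held the first and 1, Samhd1, the second. Of 23 interferon-stimulated targets with a promoter, 14 held the first and 4 the second. Ifit1 is printed for contrast, with its 2 matches in capitals (RefSeq, GRCm38.p6, chr19:34640639-34640870, plus strand, 5′ to 3′).
Ifit1: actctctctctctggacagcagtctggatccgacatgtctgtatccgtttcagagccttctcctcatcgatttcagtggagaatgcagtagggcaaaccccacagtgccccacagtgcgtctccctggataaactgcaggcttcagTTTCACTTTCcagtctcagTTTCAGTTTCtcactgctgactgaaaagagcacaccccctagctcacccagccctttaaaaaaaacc
A match is a description of the letters, and the lack of one in this window says nothing of the factor.

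Finally, genes with a like pattern were sought over the 33 profiles of a class in a library with at least 30 cells, by Pearson correlation of log2(CPM + 1) among 12004 genes with at least 500 UMIs. The profiles share libraries and depth, so the values are a description. Samhd1 was closest to Irf1 (0.947), an interferon-induced transcription factor, Psme2b (0.882) and Slfn8 (0.878). Tmem173 was closest to Tmsb10 (0.910), Slc38a1 (0.897) and Rexo4 (0.897). For Cgas the nearest were Pip4p2 (0.880), Mgat4b (0.856) and Mgat5 (0.836), and for Enpp1 Aig1 (0.805), Txndc5 (0.798) and Camkmt (0.786). Among the members, Tmem173 and Irf3 were most alike (0.84), then Tbk1 and Samhd1 (0.68), while Cgas and Samhd1 had 0.11. Of these 12 neighbours, 5 stayed among the nearest 3 with a pseudocount of 10 and 3 with rank correlation, so the order is loose.

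**Figure D4:**
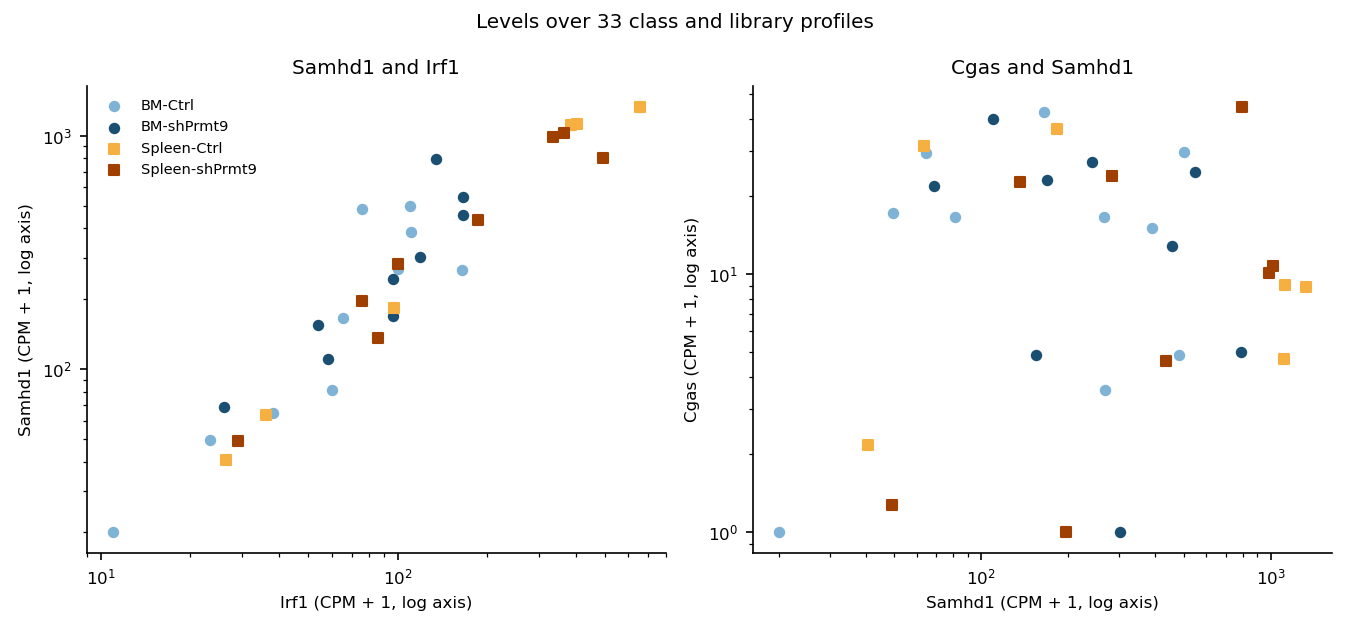
Levels of Samhd1 against its nearest gene, Irf1, and of Cgas against Samhd1 over the 33 class and library profiles (CPM + 1 on log axes, each point a class in a library, colours and shapes the libraries). Samhd1 and Irf1 run together with a Pearson correlation of 0.947, while Cgas and Samhd1 scatter with 0.11.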

How the data were processed

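Single-cell suspensions of bone marrow and spleen were run on the 10x 3′ platform, 1 library per group, and sequenced. The deposited files are UMI counts per gene and barcode written by the authors' runs of Cell Ranger (6.0.2 in the matrix headers, 6.1.1 in the submitters' processing notes, which name the build mm10). The annotation release is not given in the sources used here. Groups were taken from the library titles. Columns of per-sample values left unused numbered 0.

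Barcodes under 200 genes or over 20% mitochondrial UMIs were left out, 101 in BM-Ctrl, 141 in BM-shPrmt9, 169 in Spleen-Ctrl and 583 in Spleen-shPrmt9. The study's own cell labels were not used. A cell passed a gate with at least 3 UMIs of at least 2 markers of a class and a minimum rate per 10000 UMIs. A marker of the leukaemia list is not reported here and took no part in the gates. The gate thresholds were set after the data were seen, and differences from the study may come from these rebuilt names. No doublet caller was run. Cells past the gates of 2 classes were left out as mixed (446, 411, 561 and 272 in that order), except that Hoxa-gated cells could also pass the granulocyte or Mpo/Ms4a3 gate, T-like cells the NK gate, plasma-like cells the B gate and basophil-like cells the Mpo/Ms4a3 gate, and 540, 718, 144 and 1318 cells had no class, the last being 16.3% of the cells kept in Spleen-shPrmt9.

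Counts were summed per class and library. CPM have exact Poisson intervals and ratios exact conditional binomial (Clopper-Pearson) ones at 95%, and shares of cells exact binomial ones. No test across samples was possible with 1 library per group. With 0 UMIs a floor of 3 counts was used. The difference of 2 log2 ratios has a normal interval from the counts. Named genes were the 7 members, Prmt9, the 3 genes most like each of 4 members, and up to 3 genes per list and direction past the fold with the largest change in Hoxa-gated and T-like cells. Isg15, and those named for both tissues, were chosen after their values were seen. The members and lists were chosen with earlier results of these data known. The ratio script was tested on simulated counts. Positions are from GENCODE vM21 (GRCm38) and promoters from RefSeq (GRCm38.p6). Python 3.11.15, NumPy 2.4.6, SciPy 1.17.1, pandas 2.3.3, Matplotlib 3.10.9 and, for TMM scaling, edgeR 4.0.16 in R 4.3.3 were used. Alternatives were the gate (stricter, mixed cells kept, or assignment by profile), the mitochondrial maximum, the scaling, the totals, the mean over cells, leaving out shared barcodes, the deepest cells or the cell with the most UMIs, the fold, the UMI minimum and the correlation measure.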

Additional observations from a re-analysis of the deposited data

Results flagged for a closer look

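In 4 results the log2 ratio of shPrmt9 to Ctrl had opposite signs in marrow and spleen, with both intervals off 0. With 1 library per group the difference was not tested across samples. The log2 ratio of Cgas in Hoxa-gated cells was 0.37 in marrow and -0.63 in spleen. That of Samhd1 in T-like cells was 0.24 in marrow and -0.13 in spleen. That of Samhd1 in B-like cells was 0.18 in marrow, where it became -0.01 with cells assigned by profile, and -1.36 in spleen. That of Samhd1 in granulocyte-like cells was 0.71 in marrow and -0.42 in spleen, and the spleen value was -0.01 with TMM scaling.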

How the results depend on the processing

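The 30 of 72 member ratios past the fold became 27 to 37 over the 12 alternatives, and of 851 planned log2 ratios 777 stayed within their counting error, 65 moved and 9 changed sign. Of 294 planned counts of list genes past the fold 90 moved. Among planned levels 129 of 450 moved, and among percentages 20 of 42, with 0 reversed. With cells assigned by profile the log2 ratio became -0.15 for Samhd1 in marrow monocyte/macrophage-like cells, -0.01 for Samhd1 in marrow B-like cells, 0.13 for Tbk1 and 0.07 for Irf3 in spleen granulocyte-like cells (spleen minus marrow 0.14 and 0.51) and -0.95 for Tmem173 in spleen erythroid-like cells. With mixed cells kept it became -0.02 for Samhd1 in spleen NK-like and -0.09 for Tmem173 in spleen erythroid-like cells. As a mean over cells it became 0.35 for Enpp1 in marrow T-like and -0.03 for Samhd1 in marrow monocyte/macrophage-like cells. The log2 ratio of Samhd1 in Hoxa-gated cells was 0.37 in marrow by profile, 0.57 as a mean over cells and 0.32 without the cells of the granulocyte gate, and in spleen 0.84 by profile. Spleen minus marrow was 0.47 by profile and 0.40 without those cells. Leaving out the granulocyte gate and the Y-linked UMIs was chosen after seeing the data. Levels in Hoxa-gated cells as a mean over cells were 15.2 and 20 CPM for Cgas, 23.4 and 39.9 for Tbk1 and 53.9 and 80.3 for Samhd1 in BM-Ctrl and BM-shPrmt9, 37.2 for Tmem173 in BM-shPrmt9, and 212 and 326 for Samhd1 in the spleen libraries. With totals without haemoglobin, mitochondrial and immunoglobulin genes they were 50.4 and 70.4 for Samhd1 in the marrow libraries, and 36.9 for Tmem173 and 38.1 for Tbk1 in BM-shPrmt9. By profile Samhd1 was 51.6 in BM-Ctrl, 136 in Spleen-Ctrl and 244 in Spleen-shPrmt9. Of the 12 most similar genes 5 stayed with a pseudocount of 10 and 3 with rank correlation. The cause of these moves was not tested. No paired analysis was possible because each group was 1 library. The 38 Hoxa-gated cells of Spleen-Ctrl limit every spleen ratio of that class. So does the make-up of the class in Spleen-shPrmt9, with 169 cells by gate and 92 by profile.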
